A study of Homo sapiens with 12 samples.

Results

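The genes described here code for the enzymes that make cholesterol and fatty acids, the proteins that sense sterols and switch those enzymes on, and a few proteins that move sterols or mark the uptake receptor for breakdown. A list of 36 gene symbols was matched to the 63152 Ensembl identifiers of the count table. Of these, 35 matched and 34 had enough counts to be tested. *ACACA* could not be matched to an identifier, and *FADS2* had 0 to 7 counts per library and was not tested. The genes fell into 5 steps, namely 5 tested regulators, 7 genes of the mevalonate arm, 11 of the squalene and sterol arm, 7 of fatty acid synthesis and 4 of transport and uptake.

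RNA was measured in OPM2 cells, an established human multiple myeloma line, after 2 h with DMSO (the solvent control), 250 nM JQ1, 1 µM BKM120 or 250 nM 18DS. JQ1 displaces BET proteins from acetylated chromatin. BKM120 (buparlisib) inhibits PI3-kinases, and 18DS is described by the submitters as one molecule aimed at both targets. Each group had 3 libraries of QuantSeq 3' mRNA sequencing, no library received JQ1 and BKM120 together, and the dose of BKM120 differed from that of the other compounds.

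Sterol synthesis is under feedback control. The SREBP factors, encoded by *SREBF1* and *SREBF2*, are made as membrane proteins of the endoplasmic reticulum and are escorted by SCAP to the Golgi, where proteases release the part that enters the nucleus. When sterols are plentiful, INSIG proteins hold SCAP back and the synthetic genes fall. PI3-kinase signalling through AKT and mTORC1 is a known activator of SREBP processing, and *INSIG1* is itself a classical SREBP target.

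RefSeq promoter sequences (build GRCh38.p14) were available for 32 of the genes. Printed here are the 250 bases before the start site of 5 genes picked, with their values known, for clear differences between groups, so that the letters can be set beside the values that follow. They are *INSIG1* (chr7:155297628-155297877, plus strand), *HMGCS1* (chr5:43313413-43313662, minus strand, the outermost of 2 listed starts), *MSMO1* (chr4:165327419-165327668, plus strand), *TM7SF2* (chr11:65111622-65111871, plus strand) and *MYLIP* (chr6:16128836-16129085, plus strand). Capitals mark CACGTG, the palindromic E-box, and CCAAT, the box bound by the NF-Y factor, which appears as ATTGG when it lies on the other strand. Another motif, TCACNCCAC, a form of the sterol regulatory element, was searched on both strands and is in none of these 5 windows. Only exact matches to this form were searched, with any base at N, so other forms of the element would be missed.
INSIG1: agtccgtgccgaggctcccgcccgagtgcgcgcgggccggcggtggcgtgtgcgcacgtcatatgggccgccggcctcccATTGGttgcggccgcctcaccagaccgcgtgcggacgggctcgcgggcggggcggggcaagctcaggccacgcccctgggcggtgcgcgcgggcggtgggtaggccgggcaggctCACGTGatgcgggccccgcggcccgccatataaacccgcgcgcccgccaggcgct
HMGCS1: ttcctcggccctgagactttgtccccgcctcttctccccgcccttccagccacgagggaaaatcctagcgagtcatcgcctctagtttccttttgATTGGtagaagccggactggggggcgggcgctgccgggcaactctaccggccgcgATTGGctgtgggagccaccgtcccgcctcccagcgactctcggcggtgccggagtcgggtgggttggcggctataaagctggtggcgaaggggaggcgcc
MSMO1: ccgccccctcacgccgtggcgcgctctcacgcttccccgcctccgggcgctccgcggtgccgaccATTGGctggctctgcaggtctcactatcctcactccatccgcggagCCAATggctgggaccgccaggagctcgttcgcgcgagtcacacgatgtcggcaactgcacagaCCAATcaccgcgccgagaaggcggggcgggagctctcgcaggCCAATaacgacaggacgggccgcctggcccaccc
TM7SF2: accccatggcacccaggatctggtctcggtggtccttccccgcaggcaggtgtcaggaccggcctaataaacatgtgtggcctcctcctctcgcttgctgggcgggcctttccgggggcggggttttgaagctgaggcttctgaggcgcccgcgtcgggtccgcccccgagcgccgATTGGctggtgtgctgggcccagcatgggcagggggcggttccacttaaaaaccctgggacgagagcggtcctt
MYLIP: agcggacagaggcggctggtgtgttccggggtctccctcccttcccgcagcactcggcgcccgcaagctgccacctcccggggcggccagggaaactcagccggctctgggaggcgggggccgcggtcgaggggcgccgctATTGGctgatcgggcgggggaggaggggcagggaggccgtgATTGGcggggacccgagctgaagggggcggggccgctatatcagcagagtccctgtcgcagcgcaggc

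The *INSIG1* window held 1 E-box and 1 CCAAT box. CCAAT boxes numbered 4 for *MSMO1*, 2 for *HMGCS1*, 2 for *MYLIP* and 1 for *TM7SF2*. Over all 45 windows of the 32 genes, 55.6% held CCAAT in either orientation, against 32.0% of the 35116 windows of all RefSeq promoters. CACGTG was in 11.1% of the genes' windows, those of *ABCA1*, *INSIG1*, *SC5D* and *SCAP*, against 6.34% of all windows. TCACNCCAC was in 2.22%, a single window of *SREBF2*, against 0.883% of all. These counts describe letters in a fixed window and show no binding.

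Total counts per library ran from 5501895 to 7692013. The 9 plasma cell markers were all tested and summed to 5104 to 5175 CPM (reads scaled to equal library size) in DMSO libraries, 4516 to 4822 after JQ1, 4792 to 4946 after BKM120 and 3953 to 4542 after 18DS. T and NK cell markers summed to at most 1.44 CPM, with *CD3D* and *NKG7* at 0, myeloid markers to at most 4.52 CPM, and stromal and epithelial markers to at most 3.40 CPM. *MYC*, a gene known to depend on BET proteins, measured 28.6, 32.2 and 27.2 CPM in DMSO libraries, 2.24, 2.91 and 2.46 after JQ1, 56.5, 47.4 and 50.1 after BKM120, and 3.66, 2.46 and 1.42 after 18DS. Other genes that served as checks of compound action were *HEXIM1*, with log2 changes of 1.66 after JQ1 and 1.95 after 18DS, *KLF2*, with 2.80 after BKM120 and 1.64 after 18DS, and *IRS2*, with 1.53 after BKM120 and 1.52 after 18DS. The share of mitochondrial transcripts was 6.56 to 7.04% in DMSO and JQ1 libraries and 6.95 to 7.65% in BKM120 and 18DS libraries, and its part in the results below was not tested. The labels call the libraries biological triplicates without naming separate cultures, so p-values measure the spread between these libraries. In bulk RNA, fewer cells of a kind and less RNA per cell cannot be told apart.

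The 35 matched genes together took 0.219 to 0.229% of counts in the DMSO libraries, 0.243 to 0.261% after JQ1, 0.189 to 0.191% after BKM120 and 0.217 to 0.221% after 18DS. The JQ1 libraries lay above and the BKM120 libraries below every other library, and 18DS overlapped DMSO. Without *INSIG1* the shares were 0.205 to 0.214% in DMSO, 0.209 to 0.226% after JQ1, 0.181 to 0.183% after BKM120 and 0.197 to 0.201% after 18DS. JQ1 then overlapped DMSO, 18DS lay below DMSO, and BKM120 lay below all other groups. All these shares use total counts, without the TMM scaling factors applied to the gene values below. Those factors were 0.971 to 0.976 in 18DS and 1.01 to 1.03 in DMSO libraries. The order of 18DS and DMSO in either set of shares therefore holds for unscaled counts only. The same limit applies to the order of JQ1 and DMSO without *INSIG1*.

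Changes were tested gene by gene with edgeR's quasi-likelihood test over all 13180 tested genes, and a call required an adjusted p under 0.05 (Benjamini-Hochberg, over all tested genes). After JQ1, 6 of the 34 genes were called higher (17.6%, against 2.63% of all tested genes), namely *INSIG1*, *IDI1*, *TM7SF2*, *FASN*, *NPC1* and *MYLIP*. None was called lower, where 3.45% of all tested genes were. For lower values in JQ1, DESeq2 and limma-voom also called 0, and 3 genes had an unadjusted edgeR p under 0.05. The count of 6 was 2 without DMSO replicate 3 and 3 without JQ1 replicate 3, and it was 6 under each of the 10 alternatives that kept all libraries.

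After BKM120, 7 genes were called lower (20.6%, against 4.14% of all tested genes), namely *INSIG1*, *HMGCS1*, *SQLE*, *MSMO1*, *ACLY*, *FASN* and *SCD*. One gene, *MYLIP*, was called higher (2.94%, against 4.07% of all tested genes). After 18DS, 6 were called higher (17.6%, against 9.96%), namely *INSIG1*, *SCAP*, *IDI1*, *FDPS*, *TM7SF2* and *MYLIP*. Lower calls after 18DS numbered 4 (11.8%, against 11.0%), namely *INSIG2*, *HMGCS1*, *MSMO1* and *SCD*. The share of lower calls after 18DS was thus close to that of all tested genes in this fit. With library totals in place of TMM factors, the 18DS calls numbered 5 higher and 6 lower. *FDPS* was then lost from the higher calls, and *SQLE* and *CYP51A1* joined the lower ones. Over all genes that setting gave 2919 calls in either direction, beside 2769 in the main fit. The median change over the 34 genes was 0.03 on the log2 scale after JQ1, -0.08 after BKM120 and 0.03 after 18DS, beside medians of all tested genes within 0.01 of 0. The 3 comparisons share the DMSO libraries.

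**Figure D1:**
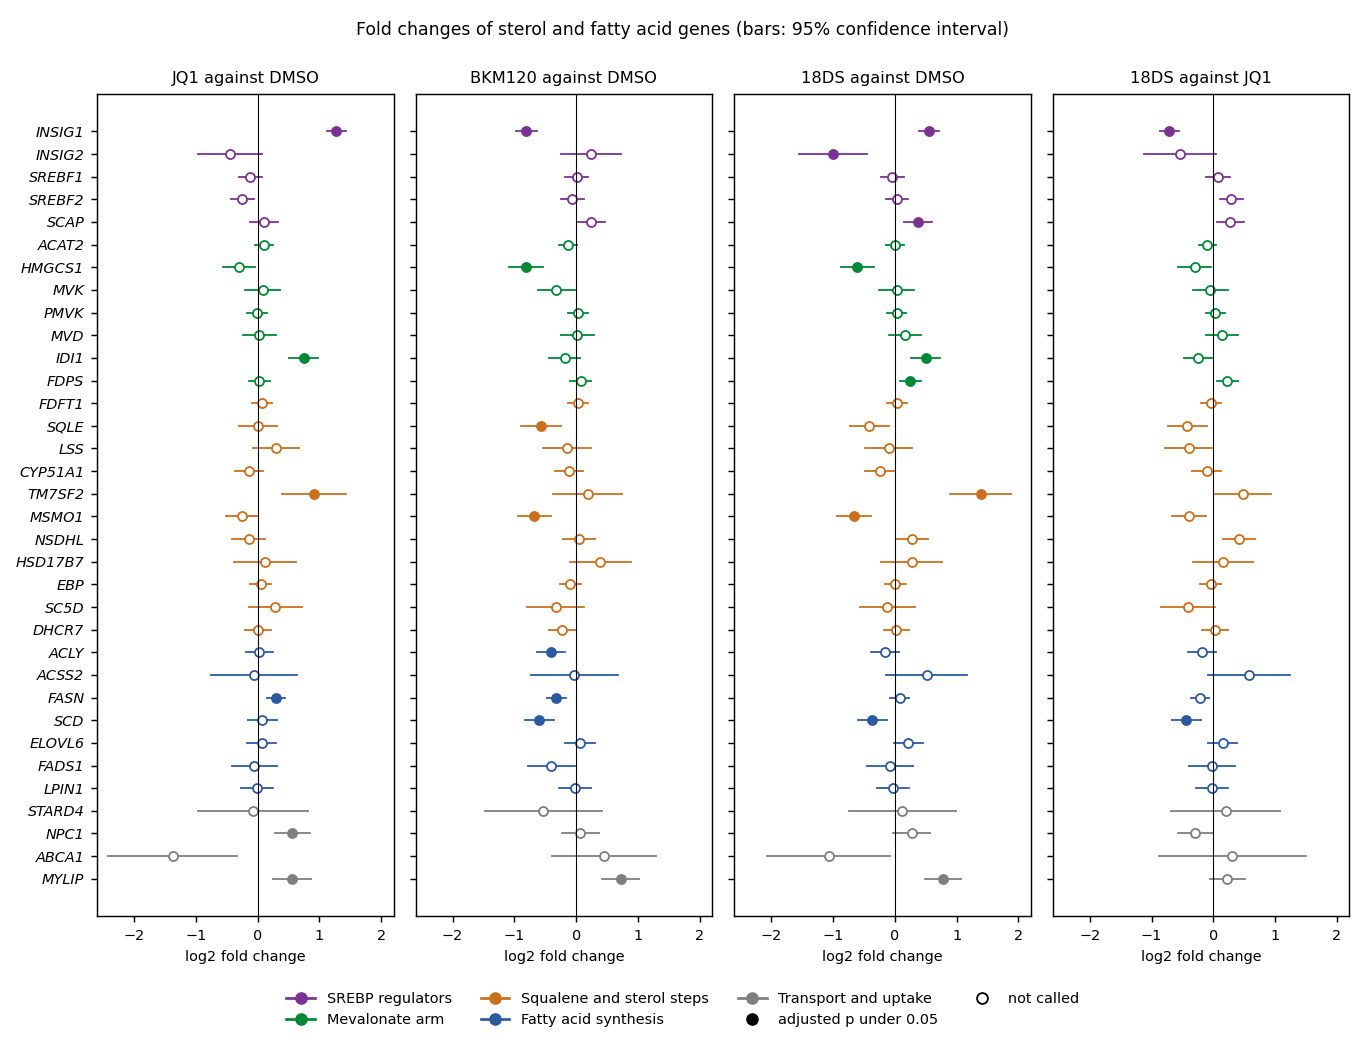
Log2 fold change of each tested gene in 4 panels (JQ1, BKM120 and 18DS each against DMSO, and 18DS against JQ1), ordered and coloured by step, with 95% confidence intervals from the edgeR fit; filled points passed an adjusted p of 0.05. *INSIG1* stood at 1.27 after JQ1, -0.81 after BKM120, 0.55 after 18DS and -0.72 in 18DS against JQ1, and 20 of the 34 genes have no filled point.

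Of the 5 regulators, 1 was called higher after JQ1, 1 lower after BKM120, and 2 higher and 1 lower after 18DS. These are 20%, 20%, 40% and 20% of the 5, beside 2.63%, 4.14%, 9.96% and 11.0% of all tested genes. *INSIG1* (ENSG00000186480), the endoplasmic reticulum protein that retains SCAP, had the widest spread between groups. It measured 146, 139 and 135 CPM in the DMSO libraries, 335, 332 and 347 after JQ1, 72.9, 81.4 and 86.4 after BKM120, and 211, 198 and 208 after 18DS. The 4 groups did not overlap, with BKM120 lowest, then DMSO, then 18DS, then JQ1. Against DMSO (140 ± 5.26 CPM, SD, n = 3) the log2 change was 1.27 after JQ1 (SE 0.08, edgeR adjusted p = 4.48e-15), -0.81 after BKM120 (SE 0.08, edgeR adjusted p = 8.7e-09) and 0.55 after 18DS (SE 0.08, edgeR adjusted p = 1.42e-06). JQ1 and BKM120 thus moved this gene in opposite directions, and 18DS lay between JQ1 and DMSO.

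*INSIG2* (ENSG00000125629), its paralogue, did not follow *INSIG1*. It measured 6.63, 4.51 and 7.66 CPM in the DMSO libraries, 5.68, 3.64 and 4.40 after JQ1, 6.12, 8.12 and 7.91 after BKM120, and 3.52, 3.34 and 2.53 after 18DS. Each 18DS library lay below every other library. The log2 change after 18DS was -0.99 (SE 0.27, edgeR adjusted p = 0.00717), while JQ1 gave -0.45 (edgeR adjusted p = 0.364) and BKM120 0.24 (edgeR adjusted p = 0.602). Without DMSO replicate 3 the 18DS call was lost, and over 22 alternatives its adjusted p ran from 0.0036 to 0.0524.

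*SCAP* (ENSG00000114650), the escort of the SREBP precursors, measured 49.5, 58.5 and 63.3 CPM in DMSO libraries, 59.5, 64.8 and 59.0 after JQ1, 70.5, 61.3 and 69.5 after BKM120, and 63.8, 90.1 and 68.2 after 18DS. The 18DS values lay just above DMSO, and replicate 2 stood highest of the 12 libraries. The log2 change after 18DS was 0.37 (SE 0.11, edgeR adjusted p = 0.0141). The call was lost without DMSO replicate 1 or 18DS replicate 2, with adjusted p between 0.00229 and 0.156 over the alternatives.

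The genes of the SREBP factors themselves were not called in any comparison with DMSO. *SREBF1* (ENSG00000072310) had log2 changes of -0.12 after JQ1, 0.00 after BKM120 and -0.04 after 18DS, each with an SE of 0.09. *SREBF2* (ENSG00000198911), the factor most tied to cholesterol genes, measured 52.7, 55.7 and 58.0 CPM in DMSO libraries, 45.8, 46.4 and 47.8 after JQ1, 56.5, 50.2 and 52.5 after BKM120, and 56.8, 55.8 and 58.0 after 18DS. All JQ1 libraries lay below the other 9, at a log2 change of -0.25 against DMSO (SE 0.09, edgeR adjusted p = 0.114). RNA levels say nothing of how much SREBP protein was cleaved.

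In the mevalonate arm, 1 of 7 genes was called higher after JQ1, 1 lower after BKM120, and 2 higher and 1 lower after 18DS. These are 14.3%, 14.3%, 28.6% and 14.3% of the 7, beside 2.63%, 4.14%, 9.96% and 11.0% of all tested genes. *HMGCS1* (ENSG00000112972), the cytosolic synthase that makes HMG-CoA, measured 40.8, 38.8 and 34.8 CPM in DMSO libraries, 28.7, 30.9 and 33.0 after JQ1, 22.4, 26.0 and 16.2 after BKM120, and 28.5, 23.0 and 23.5 after 18DS. Every treated library lay below every DMSO library, and the BKM120 group reached lowest. Its log2 change was -0.82 after BKM120 (SE 0.13, edgeR adjusted p = 8.61e-05), -0.61 after 18DS (SE 0.13, edgeR adjusted p = 0.000851) and -0.30 after JQ1 (SE 0.13, edgeR adjusted p = 0.183).

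*IDI1* (ENSG00000067064), the isomerase that interconverts the isoprenoid building blocks, rose after both bromodomain-directed compounds. It measured 29.5, 28.5 and 28.5 CPM in DMSO libraries, 45.2, 45.1 and 54.1 after JQ1, 26.9, 23.0 and 26.4 after BKM120, and 44.7, 33.7 and 43.6 after 18DS. The JQ1 and 18DS libraries all exceeded DMSO, and the BKM120 libraries lay just under it. The edgeR estimates of the log2 change were 0.75 after JQ1 (SE 0.12, edgeR adjusted p = 2.29e-05), 0.50 after 18DS (SE 0.12, edgeR adjusted p = 0.00192) and -0.18 after BKM120 (SE 0.12, edgeR adjusted p = 0.395). *IDI1* and *HMGCS1*, enzymes of one arm, thus changed in opposite directions after 18DS. In another annotation a gene on the opposite strand covers the 3' end of each, and whether counting used strand was not given.

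*FDPS* (ENSG00000160752), which makes farnesyl pyrophosphate, measured 109, 104 and 103 CPM in DMSO libraries, 113, 105 and 104 after JQ1, 107, 104 and 122 after BKM120, and 117, 131 and 128 after 18DS. Its 18DS change was small, a log2 change of 0.25 (SE 0.08, edgeR adjusted p = 0.0298). The call was lost with library totals in place of TMM factors, with no low-count filter, with only the compared groups in the fit, and without DMSO replicate 2 or 3 or 18DS replicate 2 or 3 (adjusted p 0.0102 to 0.129 over the alternatives). The counts of *FDPS* and of the antisense gene *RUSC1-AS1* lay within 5% of each other in every library, so the counted reads of the pair cannot be told apart. The other 4 tested genes of the arm, *ACAT2*, *MVK*, *PMVK* and *MVD*, were not called in any comparison with DMSO. Of these, *MVK* after BKM120 was farthest from DMSO, at -0.32 (SE 0.14).

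In the squalene and sterol arm, 1 of 11 genes was called higher after JQ1 and 2 lower after BKM120. After 18DS, 1 was called higher and 1 lower. These are 9.09%, 18.2%, 9.09% and 9.09% of the 11, beside 2.63%, 4.14%, 9.96% and 11.0% of all tested genes. *SQLE* (ENSG00000104549), the squalene epoxidase, measured 18.9, 16.3 and 18.3 CPM in DMSO libraries, 15.3, 19.8 and 18.6 after JQ1, 12.9, 13.4 and 9.52 after BKM120, and 15.1, 12.1 and 12.8 after 18DS. BKM120 and 18DS libraries lay below every DMSO library, and JQ1 overlapped DMSO. Estimated log2 changes were -0.57 after BKM120 (SE 0.16, edgeR adjusted p = 0.0218), -0.41 after 18DS (SE 0.16, edgeR adjusted p = 0.0565) and 0.01 after JQ1. The BKM120 call was lost without DMSO replicate 1 or 3 or BKM120 replicate 3 (adjusted p 0.0118 to 0.157 over the alternatives), and with library totals *SQLE* passed after 18DS at -0.48 (edgeR adjusted p = 0.0232).

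*MSMO1* (ENSG00000052802), a methylsterol oxidase that removes methyl groups from lanosterol derivatives, was called lower after BKM120 and after 18DS. It measured 26.8, 34.3 and 34.8 CPM in DMSO libraries, 25.5, 22.9 and 31.1 after JQ1, 19.8, 19.9 and 20.1 after BKM120, and 21.8, 20.7 and 18.0 after 18DS. BKM120 and 18DS each lay below all DMSO and JQ1 libraries, while JQ1 overlapped DMSO. The log2 change was -0.68 after BKM120 (SE 0.13, edgeR adjusted p = 0.00101), -0.66 after 18DS (SE 0.13, edgeR adjusted p = 0.000391) and -0.26 after JQ1 (SE 0.13, edgeR adjusted p = 0.288).

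*TM7SF2* (ENSG00000149809), a sterol reductase of the same arm, moved the other way. It measured 3.98, 3.06 and 3.33 CPM in DMSO libraries, 6.19, 6.18 and 7.12 after JQ1, 2.41, 4.58 and 4.85 after BKM120, and 8.88, 9.83 and 8.69 after 18DS. The 18DS libraries were the highest and the JQ1 libraries next, with no overlap between them or with DMSO. Log2 changes were 1.39 after 18DS (SE 0.24, edgeR adjusted p = 6.66e-05), 0.91 after JQ1 (SE 0.26, edgeR adjusted p = 0.0241) and 0.18 after BKM120 (SE 0.28). The JQ1 call was lost without DMSO replicate 2 or 3 or any 1 of the JQ1 libraries (adjusted p 0.0132 to 0.127 over the alternatives), and the 18DS call was not lost in any alternative.

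The other 8 tested genes of the sterol arm, *FDFT1*, *LSS*, *CYP51A1*, *NSDHL*, *HSD17B7*, *EBP*, *SC5D* and *DHCR7*, were not called against DMSO. *NSDHL* (ENSG00000147383), a dehydrogenase of the demethylation steps, averaged 28.6 CPM in DMSO, 25.9 after JQ1, 29.5 after BKM120 and 34.7 after 18DS, and had a log2 change of 0.28 after 18DS (SE 0.13). *CYP51A1* (ENSG00000001630), the lanosterol demethylase, had -0.25 after 18DS (SE 0.11), and its counts lay within 5% of those of the neighbouring gene *LRRD1* in every library, so its reads are also uncertain. *DHCR7* (ENSG00000172893), a terminal reductase, averaged 40.8 CPM in DMSO and 34.9 after BKM120, a log2 change of -0.23 (SE 0.10). None of these 3 values passed the adjusted threshold.

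**Figure D2:**
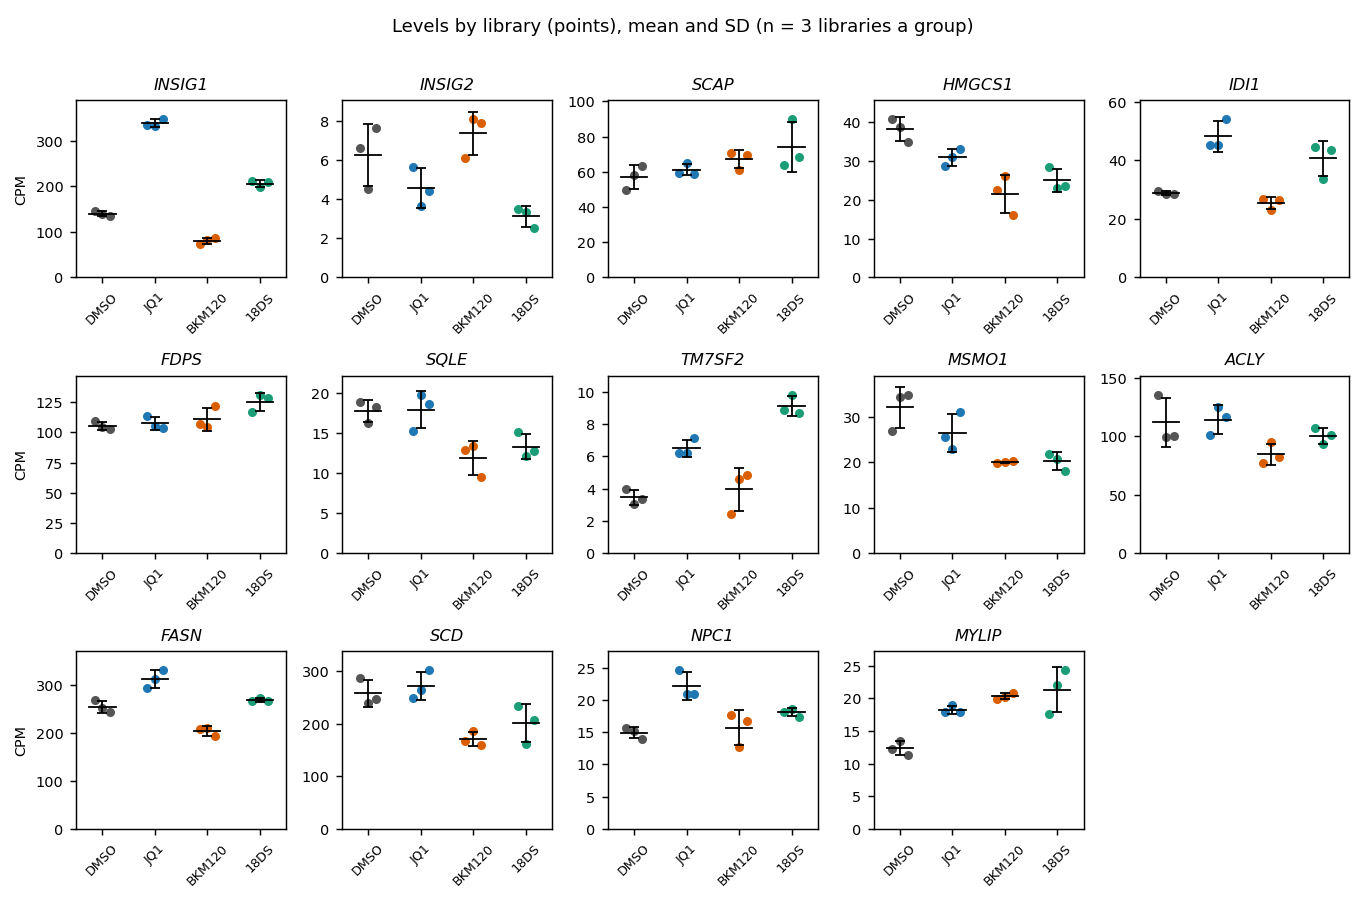
CPM (vertical axes, each from 0) in each of the 12 libraries for the called genes of the set, with points for libraries and bars for the mean and SD of the 3 libraries of a group. *INSIG1* separated all 4 groups, from 72.9 to 86.4 CPM after BKM120 up to 332 to 347 after JQ1.

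Of the 7 tested genes of fatty acid synthesis, 3 were called lower and 0 higher after BKM120. Calls numbered 1 higher after JQ1 and 1 lower after 18DS. These are 42.9%, 0%, 14.3% and 14.3% of the 7, beside 4.14%, 4.07%, 2.63% and 11.0% of all tested genes. *FASN* (ENSG00000169710), the fatty acid synthase, measured 269, 252 and 244 CPM in DMSO libraries, 294, 312 and 331 after JQ1, 208, 211 and 193 after BKM120, and 266, 274 and 267 after 18DS. JQ1 lay above and BKM120 below every other library, and 18DS overlapped DMSO. The log2 change was 0.29 after JQ1 (SE 0.07, edgeR adjusted p = 0.00936), -0.32 after BKM120 (SE 0.07, edgeR adjusted p = 0.00475) and 0.08 after 18DS (95% interval -0.07 to 0.23, edgeR adjusted p = 0.495). The JQ1 call was lost without DMSO replicate 2 or 3 or JQ1 replicate 3 (adjusted p 0.00379 to 0.092 over the alternatives).

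*SCD* (ENSG00000099194), the desaturase that makes oleate, measured 287, 240 and 246 CPM in DMSO libraries, 250, 264 and 302 after JQ1, 167, 186 and 159 after BKM120, and 233, 162 and 207 after 18DS. The BKM120 and 18DS libraries lay below all DMSO libraries, with 18DS replicate 2 well below the other two 18DS libraries. The log2 change was -0.60 after BKM120 (SE 0.11, edgeR adjusted p = 0.00257), -0.36 after 18DS (SE 0.11, edgeR adjusted p = 0.0278) and 0.08 after JQ1. The 18DS call was lost without DMSO replicate 1, 18DS replicate 2 or 18DS replicate 3 (adjusted p 0.000177 to 0.14 over the alternatives).

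*ACLY* (ENSG00000131473), which makes cytosolic acetyl-CoA from citrate, measured 136, 99.4 and 99.97 CPM in DMSO libraries, 101, 125 and 116 after JQ1, 76.8, 94.6 and 81.8 after BKM120, and 107, 93.4 and 101 after 18DS. DMSO replicate 1 stood above the other 11 libraries, and the BKM120 libraries lay below all DMSO values. The log2 change after BKM120 was -0.40 (SE 0.11, edgeR adjusted p = 0.024), and the call was lost without DMSO replicate 1, BKM120 replicate 1 or BKM120 replicate 3 (adjusted p 0.000348 to 0.206 over the alternatives). *ACSS2*, *ELOVL6*, *FADS1* and *LPIN1* were not called, and *FADS1* (ENSG00000149485), a desaturase of long polyunsaturated chains, had the lowest BKM120 value of these at -0.40 (SE 0.19, edgeR adjusted p = 0.186).

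Of the 4 transport and uptake genes, 2 were called higher after JQ1, 1 after BKM120 and 1 after 18DS. These are 50%, 25% and 25% of the 4, beside 2.63%, 4.07% and 9.96% of all tested genes. *MYLIP* (ENSG00000007944), the ubiquitin ligase that marks lipoprotein receptors for breakdown, rose in all 3 comparisons. It measured 12.2, 13.5 and 11.3 CPM in DMSO libraries, 17.9, 18.9 and 17.9 after JQ1, 19.96, 20.2 and 20.8 after BKM120, and 17.6, 22.1 and 24.3 after 18DS. All 9 treated libraries exceeded all 3 DMSO libraries. Log2 changes against DMSO were 0.56 after JQ1 (SE 0.15, edgeR adjusted p = 0.0164), 0.72 after BKM120 (SE 0.15, edgeR adjusted p = 0.0015) and 0.78 after 18DS (SE 0.15, edgeR adjusted p = 0.000144). The JQ1 call was lost without DMSO replicate 1 or 3 or JQ1 replicate 2 or 3 (adjusted p 0.00894 to 0.0956 over the alternatives).

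*NPC1* (ENSG00000141458), which exports cholesterol from lysosomes, measured 15.6, 15.1 and 14.0 CPM in DMSO libraries, 24.6, 20.9 and 20.8 after JQ1, 17.7, 12.7 and 16.7 after BKM120, and 18.2, 18.6 and 17.4 after 18DS. JQ1 lay above all other libraries. The log2 change was 0.56 after JQ1 (SE 0.14, edgeR adjusted p = 0.0111) and 0.27 after 18DS (SE 0.15, edgeR adjusted p = 0.19), and the JQ1 call was lost without DMSO replicate 3 or JQ1 replicate 1 (adjusted p 0.00482 to 0.0869 over the alternatives). *ABCA1* (ENSG00000165029), the sterol exporter, had 2 to 22 counts per library. It measured 2.06, 3.54 and 1.00 CPM in DMSO libraries, 0.344, 1.27 and 0.906 after JQ1, 3.54, 2.66 and 2.88 after BKM120, and 1.55, 1.05 and 0.474 after 18DS. Its log2 change of -1.37 after JQ1 (SE 0.51, edgeR adjusted p = 0.118) was large but did not pass, and the JQ1 libraries overlapped DMSO. *STARD4*, with 5 to 16 counts per library, allowed no finer statement.

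18DS and JQ1 were given at the same dose and time, the one matched pair of compounds in the design. Against JQ1, 18DS had 2 of 34 genes lower (5.88%, against 1.78% of all tested genes), *INSIG1* and *SCD*, and 0 higher, where 2.37% of all tested genes were. *INSIG1* was 0.72 lower on the log2 scale (log2 difference -0.72, 95% interval -0.87 to -0.56, edgeR adjusted p = 3.37e-07), and the groups did not overlap. For *SCD* the difference was -0.44 (95% interval -0.67 to -0.20, edgeR adjusted p = 0.035), and the call was lost without JQ1 replicate 2 or 3 or 18DS replicate 2 or 3, each of which left 1 gene called lower (adjusted p 3.73e-05 to 0.15 over the alternatives).

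For genes higher in 18DS than JQ1, DESeq2 and limma-voom also called 0, and 5 had an unadjusted edgeR p under 0.05. The count became 1 without DMSO replicate 1, BKM120 replicate 2 or BKM120 replicate 3, and 2 without 18DS replicate 1. Genes called after JQ1 whose difference between the compounds did not pass were *IDI1* (-0.24, 95% interval -0.47 to -0.02), *TM7SF2* (0.48, 0.03 to 0.93), *FASN* (-0.22, -0.36 to -0.07), *NPC1* (-0.29, -0.57 to -0.01) and *MYLIP* (0.22, -0.06 to 0.51). The first 4 intervals leave out 0 before adjustment over all genes. *SREBF2* (0.28, 0.10 to 0.47, edgeR adjusted p = 0.0669) and *MSMO1* (-0.40, -0.68 to -0.13, edgeR adjusted p = 0.0823) also missed the threshold. *NSDHL* was closest to it, at 0.42 (SE 0.13, edgeR adjusted p = 0.0539), with 34.7 CPM on average after 18DS and 25.9 after JQ1.

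Set against each other, with 250 nM JQ1 and 1 µM BKM120, the single compounds differed at 11 of the 34 genes with JQ1 higher (32.4%, against 7.19% of all tested genes) and at 1 with JQ1 lower (2.94%, against 7.42%). The higher genes were *INSIG1*, *ACAT2*, *HMGCS1*, *IDI1*, *SQLE*, *TM7SF2*, *MSMO1*, *ACLY*, *FASN*, *SCD* and *NPC1*, which come from all 5 steps. The difference was 2.08 for *INSIG1* (SE 0.08, edgeR adjusted p = 1.68e-20), 0.93 for *IDI1* (SE 0.12, edgeR adjusted p = 3.99e-07), 0.67 for *SCD* (SE 0.11, edgeR adjusted p = 0.000488) and 0.61 for *FASN* (SE 0.07, edgeR adjusted p = 1.3e-07). These 4 calls held in all 22 alternatives. The lower gene was *ABCA1*, at -1.82 (SE 0.49, edgeR adjusted p = 0.00983), from 2 to 22 counts per library, and was lost without JQ1 replicate 1 or BKM120 replicate 1 (adjusted p 0.00299 to 0.066 over 21 alternatives). Of the other calls, that of *TM7SF2* (0.73, SE 0.25, edgeR adjusted p = 0.0458) was lost in 11 alternatives and that of *MSMO1* (0.42, SE 0.14, edgeR adjusted p = 0.0324) in 6. The call of *ACAT2* (0.23) was lost in 4, those of *SQLE* (0.58) and *ACLY* (0.43) in 3 each. *HMGCS1* (0.51) and *NPC1* (0.50) lost theirs in 2 each. Leaving out BKM120 replicate 1 reduced the count of 11 to 7, and leaving out BKM120 replicate 3 or JQ1 replicate 3 reduced it to 6.

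Whether 18DS departed from the sum of the 2 single-compound changes was tested as one contrast on the log2 scale, with BKM120 at its own dose. None of the 34 genes was called, where 0.121% of all tested genes were in either direction. DESeq2 and limma-voom also called 0, and 5 genes had an unadjusted edgeR p under 0.05. For *INSIG1* the sum was 0.47 and the 18DS change 0.55, a departure of 0.09 (95% interval -0.13 to 0.31). *HMGCS1* departed by 0.51 (95% interval 0.13 to 0.90, edgeR adjusted p = 0.408), since each single-compound value was negative and 18DS lay above their sum. *MYLIP* departed by -0.49 (95% interval -0.90 to -0.08, edgeR adjusted p = 0.511) and *INSIG2* by -0.78 (95% interval -1.53 to -0.03, edgeR adjusted p = 0.621). The widths of these intervals set what departure could be seen.

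**Figure D3:**
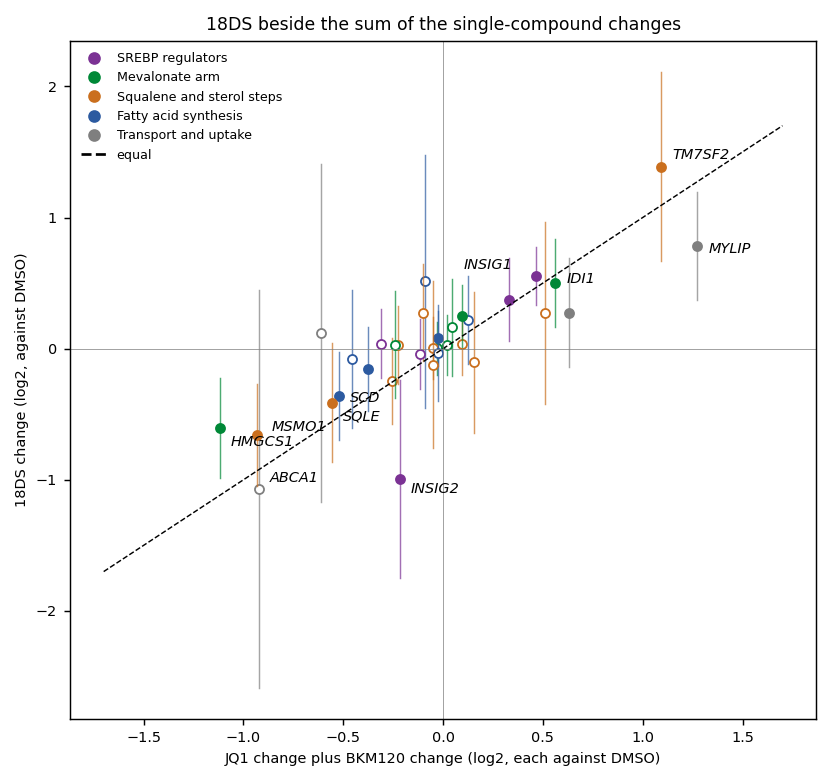
Each tested gene's 18DS change against DMSO (vertical, log2) beside the sum of its JQ1 and BKM120 changes (horizontal, log2), coloured by step; bars are the 95% interval of the departure drawn around the 18DS change, filled points were called in at least 1 of 5 main contrasts, and the dashed line is equality. *INSIG1* lay near the line at 0.47 and 0.55, and the same DMSO libraries enter both axes.

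Beyond these genes, 63 of 69 further genes of sterol, fatty acid and lipid regulation were tested. JQ1 gave 2 higher and 2 lower calls, BKM120 3 higher and 7 lower, and 18DS 5 higher and 6 lower. As shares of the 63 these were 3.17% and 3.17%, 4.76% and 11.1%, and 7.94% and 9.52%, beside 2.63% and 3.45%, 4.07% and 4.14%, and 9.96% and 11.0% of all tested genes. Lower calls after BKM120 were above the share of all tested genes, and the other counts were near or below it. *MID1IP1* (ENSG00000165175), a partner of acetyl-CoA carboxylase, measured 57.7, 51.2 and 53.3 CPM in DMSO libraries, 84.8, 87.3 and 87.7 after JQ1, 36.7, 36.9 and 32.9 after BKM120, and 66.1, 61.6 and 47.2 after 18DS. JQ1 lay above and BKM120 below all other libraries, and 18DS overlapped DMSO. Its log2 change was 0.68 after JQ1 (SE 0.10, edgeR adjusted p = 1.04e-05), -0.61 after BKM120 (SE 0.11, edgeR adjusted p = 0.000282) and 0.11 after 18DS (SE 0.10, edgeR adjusted p = 0.495). Between 18DS and JQ1 it differed by -0.57 (95% interval -0.77 to -0.37, edgeR adjusted p = 0.000961).

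*RNF145* (ENSG00000145860), a sterol-responsive ubiquitin ligase of the endoplasmic reticulum, measured 52.1, 61.5 and 62.3 CPM in DMSO libraries, 40.4, 42.9 and 47.3 after JQ1, 44.3, 44.1 and 42.9 after BKM120, and 30.7, 36.9 and 37.9 after 18DS. The 18DS libraries were lowest, without overlap. Its log2 change was -0.42 after JQ1 (SE 0.10, edgeR adjusted p = 0.00719), -0.42 after BKM120 (edgeR adjusted p = 0.00779) and -0.74 after 18DS (SE 0.10, edgeR adjusted p = 2.2e-06). *ERLIN1*, which takes part in INSIG and SREBP turnover, fell by 0.46 after JQ1 (SE 0.13, edgeR adjusted p = 0.0247), by 0.43 after BKM120 (edgeR adjusted p = 0.0332) and by 0.65 after 18DS (edgeR adjusted p = 0.000396). *ACACB*, the mitochondrial acetyl-CoA carboxylase, rose by 0.98 after JQ1 (SE 0.28, edgeR adjusted p = 0.0283) and by 1.06 after 18DS (edgeR adjusted p = 0.00566). In *RNF145* the JQ1 call was lost without DMSO replicate 2 or 3 or JQ1 replicate 1 (adjusted p 0.0026 to 0.0618 over the alternatives). For *ERLIN1* it was lost without DMSO replicate 2 or 3 or JQ1 replicate 2 or 3 (adjusted p 0.0089 to 0.162), and its BKM120 call without DMSO replicate 2 or 3 or BKM120 replicate 1 or 3 and with upper-quartile factors (adjusted p 0.0126 to 0.235). *ACACB* lost its JQ1 call under DESeq2 and without DMSO replicate 2 or 3 or JQ1 replicate 1 or 3 (adjusted p 0.0156 to 0.215), and its 18DS call without DMSO replicate 3 (adjusted p 0.00235 to 0.0586).

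*RNF139* (ENSG00000170881), another ubiquitin ligase of the endoplasmic reticulum that acts in sterol-dependent protein breakdown, measured 32.7, 33.3 and 32.8 CPM in DMSO libraries, 29.8, 30.01 and 30.4 after JQ1, 25.8, 25.1 and 27.1 after BKM120, and 25.2, 23.4 and 24.3 after 18DS. All treated libraries lay below DMSO. It fell by 0.44 on the log2 scale after 18DS (SE 0.11, edgeR adjusted p = 0.00391), called in all 22 alternatives, and by 0.34 after BKM120 (edgeR adjusted p = 0.0461), a call lost in 15 of them (adjusted p 0.0273 to 0.127), among them those without any 1 DMSO, JQ1 or BKM120 library or without 18DS replicate 3. *TECR*, the reductase that ends each round of fatty acid elongation, rose by 0.46 after BKM120 (SE 0.13, edgeR adjusted p = 0.0223). That call was lost without DMSO replicate 1 or 2 or BKM120 replicate 1 or 3 (adjusted p 0.00327 to 0.238).

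**Figure D4:**
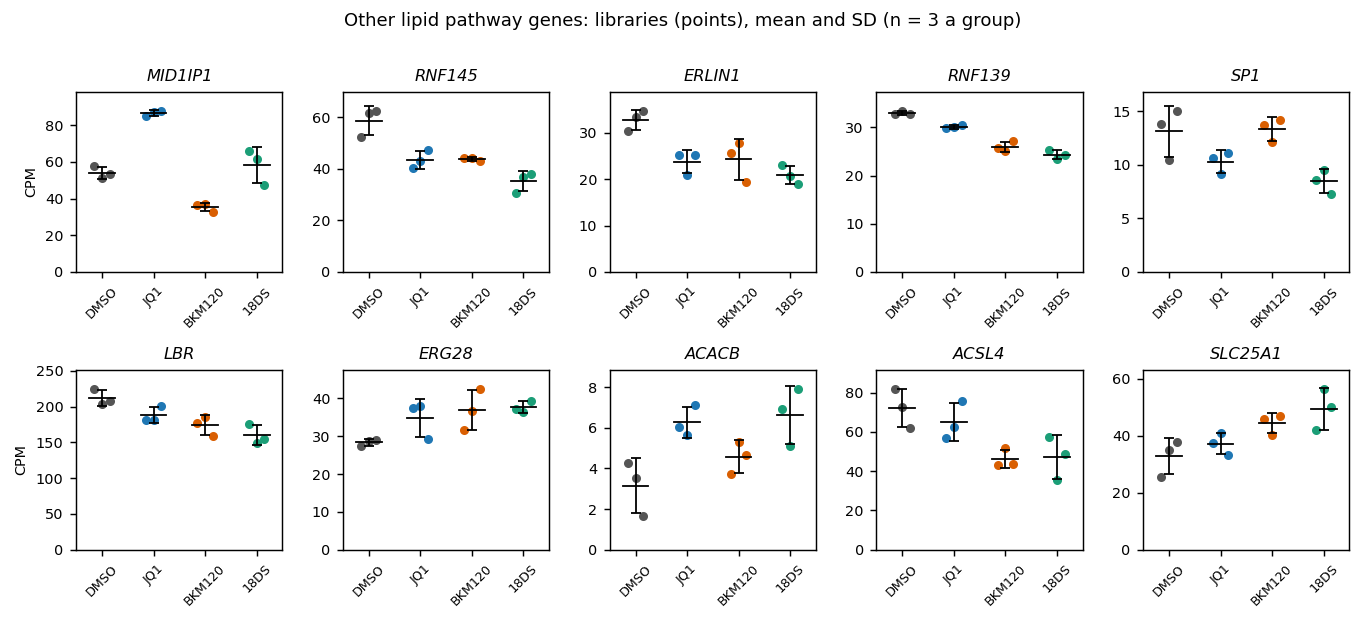
CPM in each of the 12 libraries (points) with the mean and SD of each group (bars) for 10 of the further pathway genes called in at least 1 comparison; vertical axes start at 0. *MID1IP1* was highest after JQ1, at 84.8 to 87.7 CPM, and lowest after BKM120, at 32.9 to 36.9 CPM.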

How the data were processed

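Counts were deposited by the authors as raw whole numbers per Ensembl gene, 1 column for each of 12 libraries, not normalized. Per the submitters' processing notes, the build was hg19 and the tools named were limma, Subread with featureCounts, SAMtools 1.9, HISAT2 2.1.0, cutadapt 1.7, FastQC 0.11.5 and bcl2fastq 2.17.1.14. The annotation release, whether counting used strand, and the treatment of multi-mapping reads were not given in the sources used here. In another annotation, 8 of 35 located genes had their 3' end covered by a gene on the opposite strand, among them *FDPS*, *HMGCS1*, *IDI1* and *NPC1*.

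Symbols from a gene name list were found for 51662 of 63152 identifiers. Genes were kept by filterByExpr (minimum count 10, minimum total 15), leaving 13180, and scaled by TMM (factors 0.971 to 1.03). By group the factors were 0.971 to 0.976 in 18DS, 0.987 to 1.01 in BKM120, 1.00 to 1.01 in JQ1 and 1.01 to 1.03 in DMSO libraries. The scaling thus differed between 18DS and DMSO, which bears on small changes. A robust edgeR 4.0.16 quasi-likelihood fit in R 4.3.3 over 12 libraries (limma 3.58.1, DESeq2 1.42.0 and the data.table package, version 1.17.8, also used) tested each contrast, with Benjamini-Hochberg adjustment over all tested genes at 0.05. Log2 differences, SE and 95% intervals come from this fit, and the script was tested on simulated data, where the share of false calls exceeded the 0.05 threshold and many of the smallest changes put in were not called. CPM values use TMM-scaled library sizes, except summed markers, which use total counts. Figures used Python 3.11.15, matplotlib 3.10.9, pandas 2.3.3 and numpy 2.4.6. The alternatives were other scalings, filters, tools and groups in the fit, a replicate block and leaving out each library.

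The genes and lists were chosen with earlier results of these data known. Named are all genes of the set called in a comparison, the pairs *INSIG1* and *INSIG2*, *SREBF1* and *SREBF2*, and *FADS1* and *FADS2*, 4 checks of compound action, and up to 6 further pathway genes with the smallest adjusted p in each comparison. For most of those named, values in some other comparisons are also given. The further genes of JQ1 against BKM120, a comparison added later, are not listed. *NSDHL*, *CYP51A1*, *DHCR7* and *MVK* were named after their values were seen.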

Additional observations from a re-analysis of the deposited data

How the results depend on the processing

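No called change reversed in sign under any alternative run. The tally covers 68 called and 226 uncalled combinations of gene and comparison. It holds all tested genes of the set, and further pathway genes only where called in at least 1 of the 5 main contrasts. New calls among the remaining further genes were not counted. In this tally the 10 alternatives that kept all libraries lost 30 calls and gained 24. Leaving out each of 12 libraries lost 132 and gained 25. Genes of the set higher in 18DS than JQ1, 0 in the report, numbered 1 with upper-quartile factors, with no low-count filter and with only the compared groups in the fit, and 2 with a stricter filter (minimum count 30). Genes lower in 18DS than JQ1, 2 in the report, numbered 4 with library totals. Genes lower in JQ1 than BKM120, 1 in the report, numbered 0 with the stricter filter and 2 with only the compared groups. Over all genes, 16 departed from the sum of the single-compound changes, and this became 8 with limma-voom, 45 with no low-count filter and 10 without the robust option. The fit of only the compared groups could not be run for that departure.

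With 1 library left out, genes of the set called higher or lower numbered 2 to 6 and 0 after JQ1, 1 and 5 to 7 after BKM120, 4 to 6 and 3 to 5 after 18DS, 0 to 2 and 1 to 2 for 18DS against JQ1, 0 for the departure, and 6 to 13 and 0 to 2 for JQ1 against BKM120. Over all genes the calls numbered 504 to 1021 for JQ1, 482 to 1564 for BKM120 and 1909 to 3026 for 18DS. They numbered 105 to 1027 for 18DS against JQ1, 3 to 31 for the departure and 1156 to 2316 for JQ1 against BKM120. The counts of 1021, 1564, 31 and 2316 came without 18DS replicate 2. Over all genes that library differed most from its group. The chi-square per degree of freedom was 8.88 against 18DS replicate 1 and 6.08 against replicate 3. Between those replicates it was 2.90, and in the other groups 1.92 to 5.46. Deviations from the group mean correlated at -0.128 to 0.0919 between same-numbered libraries, and 3 of 12 libraries correlated best with their own number. No pairing by number was detected in this way, and a small shared effect could be missed. A replicate block left the counts of the set against DMSO at 6 and 0, 1 and 7, and 6 and 4, and gave 743, 1042 and 2667 calls over all genes. With 2 to 26 counts per library, *ABCA1*, *STARD4* and *ACSS2* allowed only wide intervals. The cause of these changes was not tested.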

Other observations

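Further lipid genes outside the synthetic arms were also called. *CHKA*, the choline kinase that opens phosphatidylcholine synthesis, measured 116, 109 and 119 CPM in DMSO libraries, 111, 104 and 111 after JQ1, 87.6, 88.7 and 73.9 after BKM120, and 105, 92.2 and 113 after 18DS. The BKM120 libraries lay below all others, at a log2 change of -0.46 against DMSO (SE 0.09, edgeR adjusted p = 0.000908). *ACSL4*, which loads polyunsaturated fatty acids onto coenzyme A, fell by 0.64 after BKM120 (SE 0.16, edgeR adjusted p = 0.02) and by 0.60 after 18DS (edgeR adjusted p = 0.0119). *SLC25A1*, the mitochondrial citrate carrier that feeds *ACLY*, rose by 0.44 after BKM120 (SE 0.13, edgeR adjusted p = 0.0289) and by 0.59 after 18DS (edgeR adjusted p = 0.000974), while *ACLY* itself had -0.40 and -0.16 in these comparisons. The BKM120 call of *ACSL4* was lost without DMSO replicate 1 or 2 or BKM120 replicate 1 or 3 (adjusted p 4.02e-08 to 0.0966 over 22 alternatives) and its 18DS call without DMSO replicate 1 (adjusted p 1.61e-07 to 0.0575). The BKM120 call of *SLC25A1* was lost without DMSO replicate 1 or BKM120 replicate 1 or 3 (adjusted p 0.00752 to 0.226).

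*LBR*, a nuclear envelope protein with the same sterol reductase activity as *TM7SF2*, measured 224, 203 and 208 CPM in DMSO libraries, 181, 181 and 200.4 after JQ1, 177, 185 and 158 after BKM120, and 176, 149 and 155 after 18DS. It fell by 0.40 on the log2 scale after 18DS (edgeR adjusted p = 0.0004), whereas *TM7SF2* rose by 1.39. *LBR* was also called lower after BKM120, a call lost in 4 of 22 alternatives (log2 change -0.34 to -0.23, adjusted p 0.00819 to 0.168). *SCARB1*, a lipoprotein receptor, measured 30.6, 33.8 and 34.1 CPM after JQ1 and 45.4, 46.0 and 43.0 after 18DS, without overlap. The difference was 0.45 (SE 0.11, edgeR adjusted p = 0.015), and it was lost without any 1 of the JQ1 libraries (adjusted p 0.00487 to 0.0621 over 22 alternatives). *SCARB1* was the 1 further pathway gene of 63 called higher in 18DS than JQ1 (1.59%, against 2.37% of all tested genes). The 1 called lower was *MID1IP1* (1.59%, against 1.78%). Neither share exceeded that of all tested genes.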
